A study of Mus musculus with 4 samples.

Results

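The 9 genes described here encode the enzymes that carry triose phosphate to pyruvate, the lower part of glycolysis: Tpi1, Gapdh, Pgk1, Pgam1, Eno1, Eno2, Eno3 and Pkm, with Pgk1-rs7, an intronless copy of Pgk1. They were taken by name, through their Ensembl identifiers, from a deposited table of 19840 genes, and all 9 were found and tested in it. The table compares naive mouse embryonic stem cells that received a lentiviral control hairpin (shCtrl, 2 libraries) with cells given a hairpin (shLincenc1, 2 libraries) that targets Lncenc1, a long noncoding RNA. All cells were kept in 2i and LIF, which hold stem cells in the ground state, and were selected with puromycin for 2 days. The labels name 2 cell lines, E14TG2a and R1, and 2 hairpins designed for each target, but do not say which line or hairpin a library came from. They also do not say whether the libraries of a group were separate cultures, so the spread between libraries behind the p-values may be technical. That spread is a fitted value and need not be the one seen between a gene's own libraries.

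The table has no column per library, but reads per library were recovered from its values for 19835 of the 19840 genes, as described under the processing. Which library carried which label is not stated. The groups are therefore named by their level of Lncenc1, which was 6400 and 7250 normalized reads in libraries H1 and H2 (Lncenc1-high) and 2126 and 2121 in L1 and L2 (Lncenc1-low). In the authors' deposited table this is a log2 difference of 1.68 ± 0.19 (SE, DESeq2 adjusted p = 2.67e-16). Normalized reads are reads divided by the library's size factor. The recovered reads came to 27818562 in H1 and to 11051187 to 11780462 in the other 3 libraries, so H1 carries the smallest counting error. The naive stem cell markers were all measured (10 of 10), and their sum was 85193 and 81008 normalized reads in H1 and H2 and 71387 and 67793 in L1 and L2. Of these markers 0 were called by DESeq2 (1.53% of all genes called) or by limma voom on the recovered reads (0.0569% of all genes called). At an unadjusted p under 0.05 stood 3 by DESeq2 and 4 by limma voom, where 8.82% of all genes did by DESeq2. The share of all genes at that p by limma voom was not counted. The fibroblast or feeder markers (7 of 10 measured) were low, but their sum was lower in H1 and H2 (231 and 197 normalized reads) than in L1 and L2 (392 and 309). DESeq2 called 0 of the 4 tested (1.53% of all genes called), with 1 at an unadjusted p under 0.05 (8.82% of all genes). The part of either marker list in the results was not tested.

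In glycolysis, triose phosphate isomerase brings both products of aldolase into 1 form. Glyceraldehyde-3-phosphate dehydrogenase then reduces NAD, phosphoglycerate kinase makes ATP, phosphoglycerate mutase and enolase rearrange the product, and pyruvate kinase makes ATP again. Embryonic stem cells are known for a high glycolytic flux, and several of these genes are known targets of hypoxia-inducible factor and of Myc. Pgk1-rs7 is annotated in GENCODE M21 as a processed pseudogene.

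The copy and its parent have to be read together, because their sequences do not separate them. The annotated transcript of Pgk1-rs7 is 1255 bases long and was found whole in that of Pgk1, at bases 153 to 1407 of 1825 (the coding part of Pgk1 is bases 152 to 1405). The 100 bases from coding base 2 are shown for both genes, with no difference between them to capitalise.
Pgk1: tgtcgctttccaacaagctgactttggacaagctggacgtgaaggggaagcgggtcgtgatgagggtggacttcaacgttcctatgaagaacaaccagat
Pgk1-rs7: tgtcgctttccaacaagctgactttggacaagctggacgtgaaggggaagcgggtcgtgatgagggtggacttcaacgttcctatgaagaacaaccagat
Every run of 50 bases in the copy (1206 of 1206) is also in Pgk1, and 68.0% of the runs of Pgk1 recur in other annotated transcripts. A read inside the shared stretch cannot show which of these genes it came from. The 570 bases of the Pgk1 transcript that lie outside the annotated copy can, if the copy ends where its annotation does, which was not examined.

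The enolases are the opposite case. The first 90 coding bases of Eno1, the enolase of most tissues, are shown beside those of Eno2, the neuronal enolase, and Eno3, the muscle enolase, with capitals where these differ from Eno1 (19 and 28 bases).
Eno1: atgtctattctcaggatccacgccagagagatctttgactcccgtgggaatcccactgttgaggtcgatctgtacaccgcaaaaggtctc
Eno2: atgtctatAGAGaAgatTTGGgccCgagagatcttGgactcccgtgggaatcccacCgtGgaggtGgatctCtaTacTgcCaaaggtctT
Eno3: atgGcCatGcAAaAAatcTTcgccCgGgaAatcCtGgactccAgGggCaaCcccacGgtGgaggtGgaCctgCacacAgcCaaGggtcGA
Over the whole coding sequence Eno1 shared 76.9% of its aligned bases with Eno2 and 77.8% with Eno3, and the longest identical stretch was 20 bases in both pairs. Reads of these genes are therefore separable, except that Eno1 has a near-identical copy, Eno1b, with 8 differences in 1305 coding bases. Of all runs of 50 bases, 72.2% recurred in another gene for Eno1, 90.4% for Gapdh, 41.5% for Pgam1, 34.4% for Pkm and 7.51% for Tpi1. Those of Gapdh recurred in 218 other annotated genes. Levels of these genes are uncertain to the extent that the counting left out or shared such reads.

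Phosphoglycerate kinase was the one step with a change that passed the test: Pgk1 and Pgk1-rs7 were both higher in the Lncenc1-high group, and the genes of the other steps did not pass. The call was thus made for 2 of the 9 genes, and 0 were called in the other direction. Over all 14070 genes tested, 1.53% were called, and 0.505% were called as higher in the Lncenc1-high group. Leaving out L1 kept both calls (1.45% of all genes called), and leaving out H1 kept that of Pgk1 (0.405% of all genes called). Without H2 (0.576% of all genes called) or L2 (0.348%), 0 of 9 passed, although 3 of 9 had an unadjusted p under 0.05. The limma voom test called 0 of 9 (0.0569% of all genes called), also with 3 at an unadjusted p under 0.05. Scaling by library totals (1.73% of all genes called) or TMM factors (1.45%), testing genes of every level (0.897%) and a threshold of 0.1 (2.14%) each gave the same 2 calls. Since the copy repeats its parent's sequence, the pair may stand for 1 measured change. At an unadjusted p under 0.05 stood 3 of 9 members (Tpi1 was the third), against 8.82% of all genes tested. The log2 difference was positive for 8 of 9 members, against 49.4% of all genes, and its median was 0.33 over the members and -0.01 over all genes tested. Both Lncenc1-high libraries lay above both Lncenc1-low libraries for 6 of 9 members (20.6% of all genes), and the reverse held for 0 of 9 (20.7% of all genes). In bulk RNA, fewer cells of a kind and less RNA per cell cannot be told apart.

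**Figure D1:**
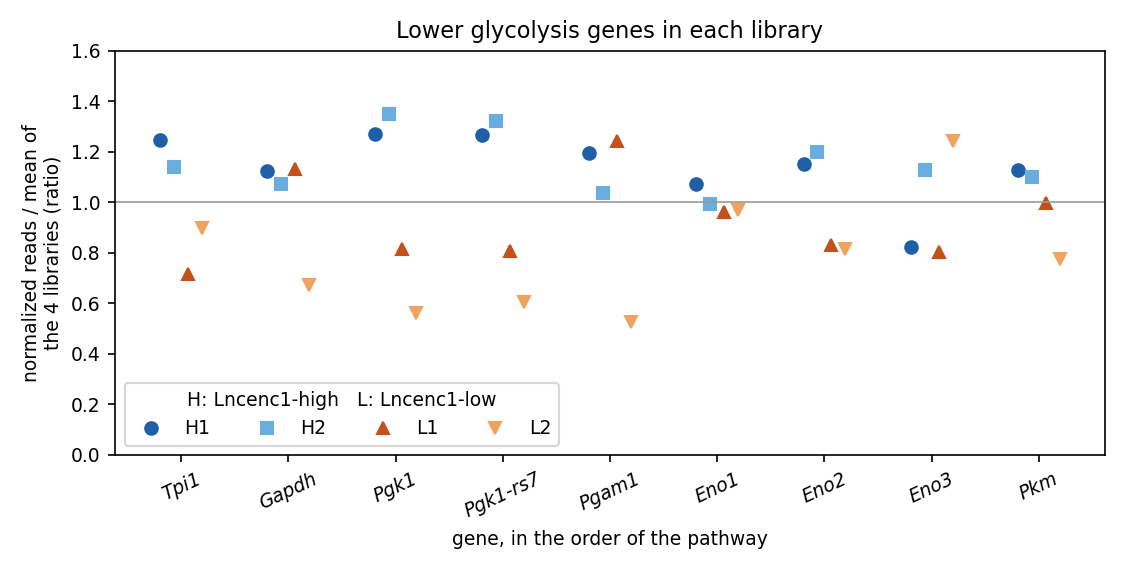
Normalized reads of each gene in each library, divided by the gene's mean over the 4 libraries (vertical axis, a ratio with no unit), in the order of the pathway. Circles and squares are the Lncenc1-high libraries H1 and H2, and triangles are the Lncenc1-low libraries L1 and L2. The groups stand clear of each other for Tpi1, Pgk1, Pgk1-rs7, Eno2, Pkm and, narrowly, Eno1, while L1 joins the high libraries for Gapdh and Pgam1.

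Pgk1 (ENSMUSG00000062070.11), which makes the first ATP of lower glycolysis, was at 11588 normalized reads in H1, 12303 in H2, 7440 in L1 and 5139 in L2. Both Lncenc1-low libraries were below both others, and L2 was the lowest. Pgk1 had the largest log2 difference of the 9 genes in the authors' deposited table, 0.93 ± 0.21 (SE, DESeq2 adjusted p = 0.00282). That is 1.90-fold, with a 95% interval of 1.42 to 2.53 from this error. Without L2 the log2 difference was 0.68 and the call was lost (adjusted p = 0.456 in a Wald refit of the recovered reads), as it was without H2 (0.88, adjusted p = 0.0889). Without L1 it was 1.22 (adjusted p = 0.00108 in that refit).

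Pgk1-rs7 (ENSMUSG00000066632.2) was at 1078 normalized reads in H1, 1124 in H2, 686 in L1 and 517 in L2. The order of the libraries was that of Pgk1, with L2 again lowest. Its log2 difference in the authors' deposited table was 0.87 ± 0.24 (SE, DESeq2 adjusted p = 0.0275), or 1.83-fold (95% interval 1.32 to 2.54). The call was lost without H1 (0.90, adjusted p = 0.202 in the refit), without H2 (0.84, adjusted p = 0.255) and without L2 (0.68, adjusted p = 0.621). Of the reads given to the pair, the copy took 8.51% in H1 (exact Clopper-Pearson 95% interval 8.17 to 8.87), 8.37% in H2 (7.85 to 8.91), 8.45% in L1 (7.79 to 9.14) and 9.13% in L2 (8.32 to 10.01). These intervals, which cover counting error only, all overlapped, although the share in L2 was above the upper ends of those of H1 and H2. Whether the copy is transcribed cannot be told apart from reads of Pgk1 placed on it. With the reads of both added, the pair was at 12666, 13427, 8126 and 5655 normalized reads in H1, H2, L1 and L2. The log2 difference of the sum was 0.92 ± 0.21 (SE, refit at the dispersion of Pgk1, adjusted p = 0.00300).

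Tpi1 (ENSMUSG00000023456.13), which interconverts the triose phosphates, came next in size. It was at 12649 normalized reads in H1, 11553 in H2, 7242 in L1 and 9111 in L2, so that the groups did not overlap and L1, not L2, was the lowest. The authors' deposited table gives a log2 difference of 0.57 ± 0.19 (SE, unadjusted Wald p = 0.00329), which did not pass over all genes (DESeq2 adjusted p = 0.134). The 95% interval was 1.14-fold to 1.92-fold. With each library left out in turn it ran from 0.41 to 0.74, positive in each of those 4 refits and called in 0 of them.

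Gapdh (ENSMUSG00000057666.17), widely used as a reference gene, did not separate the groups. Its normalized reads were 45830 in H1, 43651 in H2, 46042 in L1 and 27419 in L2. L1 was the highest of all and L2 stood 1.68-fold below it. The log2 difference in the authors' deposited table was 0.28 ± 0.23 (SE, DESeq2 adjusted p = 0.900), with a 95% interval of 0.887-fold to 1.67-fold. Without L2 it was -0.04, and without L1 it was 0.71.

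Pgam1 (ENSMUSG00000011752.6), the phosphoglycerate mutase of most tissues, had the widest spread of the abundant members. It was at 13977 normalized reads in H1, 12126 in H2, 14567 in L1 and 6172 in L2, and the Lncenc1-low libraries lay on both sides of the others. The log2 difference was 0.33 ± 0.60 (SE, DESeq2 adjusted p = 0.995) in the authors' deposited table, and its 95% interval of 0.556-fold to 2.85-fold holds both no difference and one as large as that fitted for Pgk1. It was -0.16 without L2 and 1.08 without L1. Its dispersion, the extra variance between libraries beyond counting, was 0.174, the sixth highest of the 476 most abundant genes (a mean from 5000 normalized reads upwards), whose median was 0.0167. The summed neuron markers (5 of 5 measured, of which Tubb3 carried nearly all) had the same order of libraries, and so did Gapdh. The markers were at 1634, 1084, 2367 and 677 normalized reads in H1, H2, L1 and L2. How many other genes have this order was not counted, and the part of the markers in the spread was not tested.

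The ubiquitous enolase Eno1 (ENSMUSG00000063524.12) was the steadiest of the 9. It was at 10498 normalized reads in H1, 9720 in H2, 9410 in L1 and 9467 in L2. The groups did not overlap, but the smallest gap, between H2 and L2, was less than the gap between H1 and H2. Its log2 difference of 0.10 ± 0.18 in the authors' deposited table did not pass (SE, DESeq2 adjusted p = 0.995), and the 95% interval of 0.844-fold to 1.36-fold leaves out a difference of the size fitted for Pgk1. The copy Eno1b had a constant ratio to Eno1, between 0.434 and 0.449 in the 4 libraries. With the reads of both added, a step chosen after the data were seen, the log2 difference was 0.11 ± 0.18 (SE, adjusted p = 0.993 in the refit).

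The tissue-restricted enolases were low. Eno2 (ENSMUSG00000004267.15) was at 73.4 normalized reads in H1, 76.5 in H2, 53.0 in L1 and 51.9 in L2, with no overlap of the groups. It had 289 reads in all, and a log2 difference of 0.51 ± 0.55 in the authors' deposited table (SE, DESeq2 adjusted p = 0.975, 95% interval 0.675-fold to 3.02-fold) at a fitted dispersion of 0.129. Eno3 (ENSMUSG00000060600.14) was at 77.0 normalized reads in H1, 105 in H2, 75.2 in L1 and 116 in L2, so that 1 library of each group was high and 1 low. It was the one member with a negative value in the authors' deposited table, -0.08 ± 0.49 (SE, DESeq2 adjusted p = 0.999), and that sign turned without H1 (0.14) or without L2 (0.27). The summed skeletal muscle markers (5 of 5 measured) had the library order of Eno3, at 81.1, 99.1, 71.5 and 141 normalized reads in H1, H2, L1 and L2. How many other genes have this order was not counted, and the part of these markers in it was not tested. Most of these markers were near the floor, with a median of their means of 3.12 normalized reads, and Tnnt1 was the highest at 49.3.

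Pkm (ENSMUSG00000032294.15), which encodes the M1 and M2 forms of pyruvate kinase by alternative exons, ended the series with non-overlapping groups. It was at 54885 normalized reads in H1, 53388 in H2, 48497 in L1 and 37647 in L2. The distance of L2 from L1 was larger than that of L1 from the Lncenc1-high libraries. The log2 difference in the authors' deposited table, 0.33 ± 0.19, did not pass (SE, DESeq2 adjusted p = 0.690), and the 95% interval was 0.971-fold to 1.63-fold. Counts per gene cannot show how the 2 splice forms were divided.

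**Figure D2:**
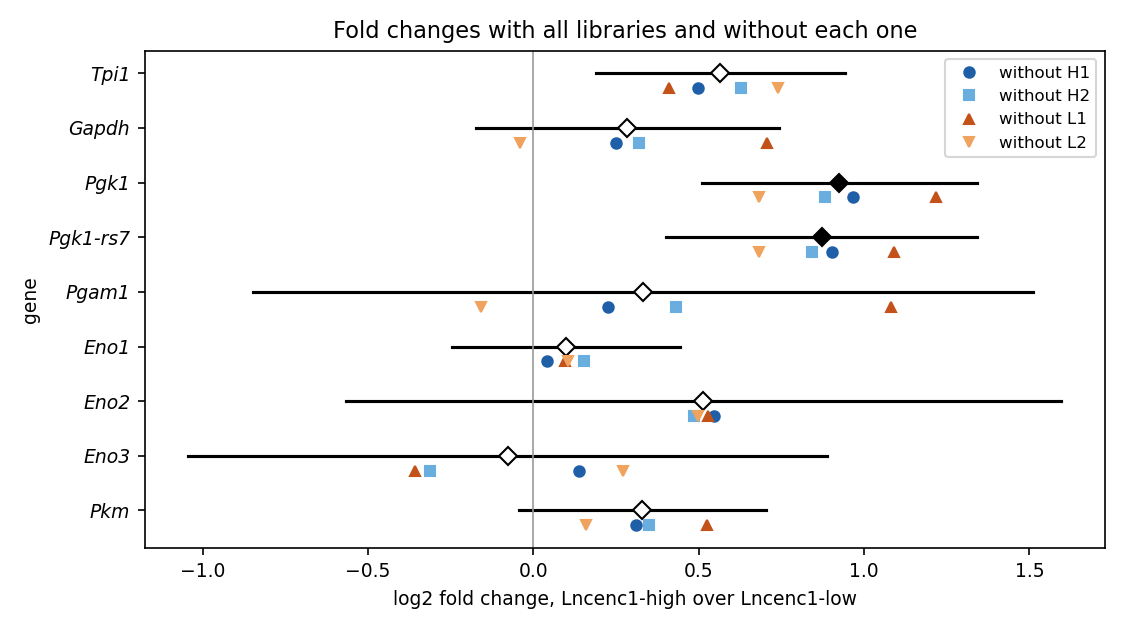
Log2 difference, Lncenc1-high over Lncenc1-low, of each gene. Diamonds are the deposited values with their 95% intervals, filled where the adjusted p is under 0.05, and the coloured points are refits without each library. Only Pgk1 and Pgk1-rs7 have filled diamonds, and the points without L2 lie left of zero for Gapdh and Pgam1.

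Divided by transcript length, so that genes can be ranked, Gapdh had the highest mean level (32000 normalized reads per kilobase), followed by Pkm at 19985. Their libraries overlapped in range (21539 to 36168 for Gapdh and 15480 to 22568 for Pkm), although Gapdh was above Pkm within each of the 4 libraries. Pgam1 (6597), Tpi1 (6309), Pgk1 (4996) and Eno1 (4822 normalized reads per kilobase) came next, and the ranges of these neighbours overlapped. Below them, Pgk1-rs7 (678), Eno3 (59.7) and Eno2 (22.8 normalized reads per kilobase) did not overlap with their neighbours in this order. The order is that of reads as counted. Of the 50-base runs, 90.4% recur in other genes for Gapdh, 72.2% for Eno1 and 7.51% for Tpi1. Every run of Pgk1-rs7 recurs in Pgk1. Reads on Eno1b (a mean of 4304 normalized reads) were not added to Eno1. The place of Eno1 among its neighbours can therefore depend on how copies were counted. Gapdh and Pkm together held 66.9% to 70.5% of the members' normalized reads in each library. The members' summed level was 150656 normalized reads in H1, 144046 in H2, 134012 in L1 and 95638 in L2. That was 1.05%, 0.991%, 0.923% and 0.7003% of all recovered normalized reads in H1, H2, L1 and L2. The sum was lowest in L2, and L1 lay closer to the Lncenc1-high libraries than to L2.

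L2 and L1 differed across abundant genes in general, and the enzymes were spread over that difference. Among those 476 genes the log2 ratio of L1 over L2 had a median of 0.16 and an SD of 0.34, and that of H1 over H2 had a median of -0.03 and an SD of 0.28. Pgam1 had the fourth highest ratio of L1 over L2 (1.24) and Gapdh the 14th (0.75). Pgk1 (0.53) and Pkm (0.37) were above the median, whereas Eno1 (-0.01) and Tpi1 (-0.33) were below it. Genes of consecutive steps thus moved apart within 1 group.

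**Figure D3:**
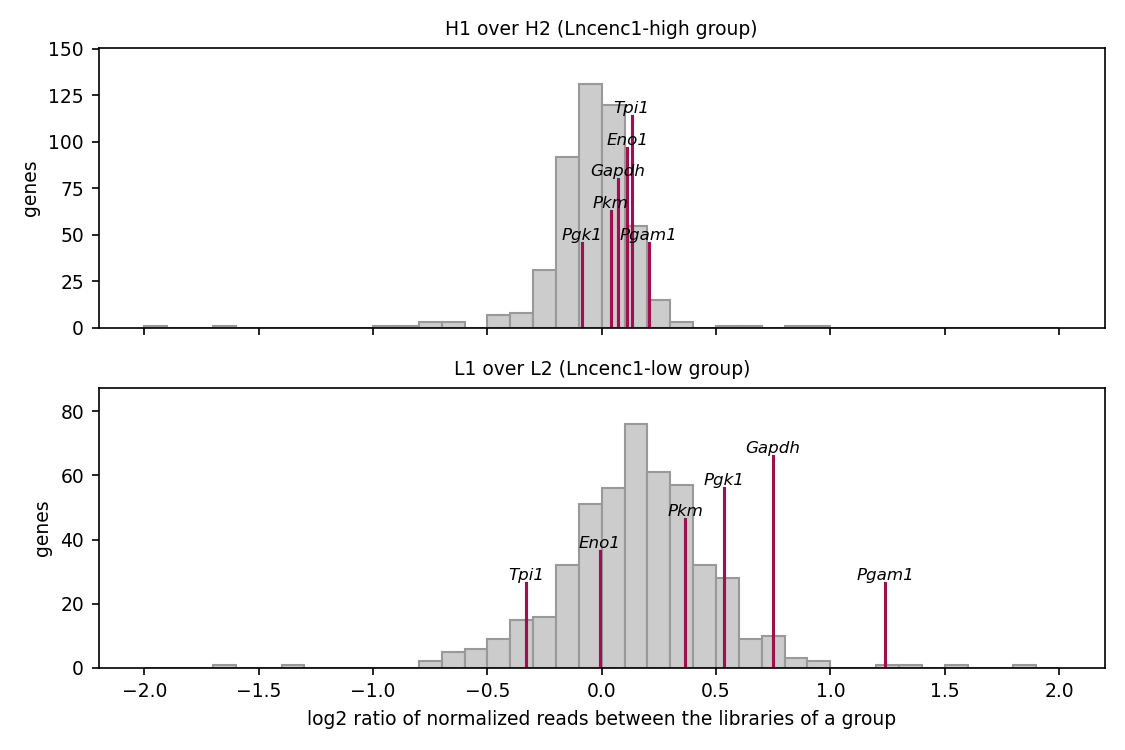
Histograms of the log2 ratio between the libraries of a group for the 476 genes whose mean reaches 5000 normalized reads, H1 over H2 above and L1 over L2 below. Lines mark the 6 members that reach this mean, and their heights carry no value. The members lie between -0.09 and 0.20 in the upper panel and between -0.33 and 1.24 in the lower one.

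Ratios within a library do not depend on its size factor. Pgk1 over Gapdh was 0.253 and 0.282 in the Lncenc1-high libraries H1 and H2 and 0.162 and 0.187 in L1 and L2, so that the groups did not overlap. Tpi1 over Gapdh was 0.276 and 0.265 in H1 and H2, and it was lowest in L1 (0.157) and highest in L2 (0.332). Pgam1 over Pgk1 was 1.21, 0.986, 1.958 and 1.201 in H1, H2, L1 and L2, so that L1 alone stood high. Pkm over Eno1 was 5.23, 5.49 and 5.15 in H1, H2 and L1 and 3.98 in L2. For the 7 pairs compared, the two-sided exact permutation test of 2 libraries against 2 cannot go below 0.333, and the adjusted p ran from 0.778 to 1. The copies were steadier: the highest ratio was 1.1003 times the lowest for Pgk1-rs7 over Pgk1, 1.03 times for Eno1b over Eno1, and 1.25 times for Gm3839 over Gapdh. Gm3839 shares 62.0% of the 50-base runs of Gapdh.

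**Figure D4:**
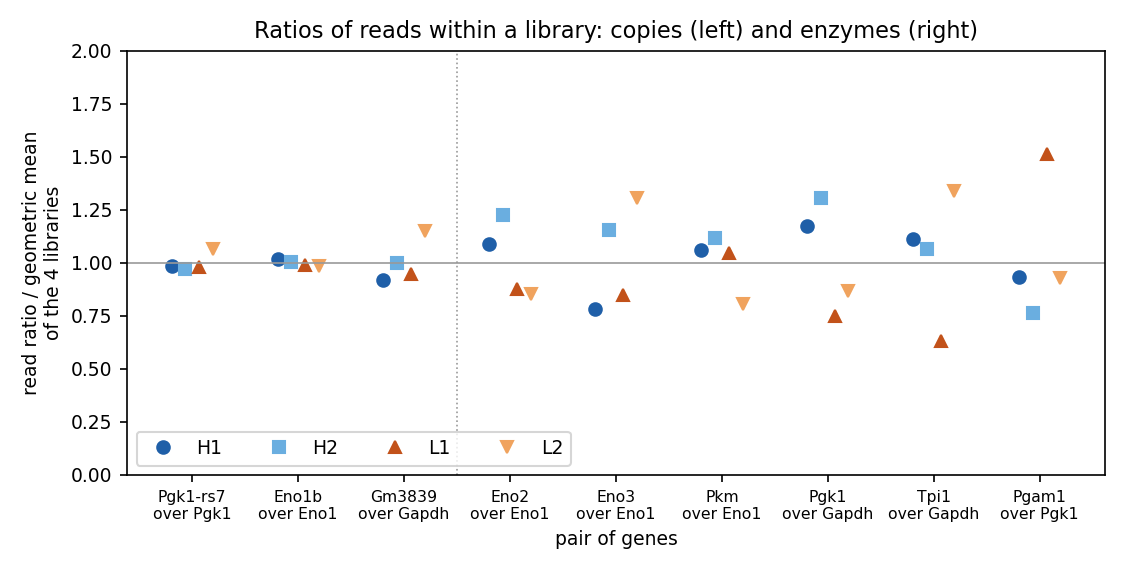
Read ratios of pairs of genes within each library, divided by the geometric mean of the 4 libraries (vertical axis, no unit). Left of the dotted line are pairs of genes that share sequence, where highest and lowest differ by 1.03 to 1.25 times. Right of it are pairs of enzymes, where L1 stands lowest for Tpi1 over Gapdh and highest for Pgam1 over Pgk1.

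The promoter windows of the members were read from RefSeq (GRCm38.p6), which held 8 of the 9 members and not Pgk1-rs7. Windows are the 250 bases before an annotated start. They were searched on both strands for ACGTG and GCGTG, the forms of the core of the hypoxia response element, and for CACGTG, the E-box bound by Myc, which contains ACGTG. Pgk1, the called gene, and Tpi1, the next in size, are shown with the matches in capitals (CACGT is ACGTG on the other strand). The window of Pgk1 is chrX:106186850-106187099 on the plus strand, and that of Tpi1 is chr6:124814159-124814408 on the minus strand.
Pgk1: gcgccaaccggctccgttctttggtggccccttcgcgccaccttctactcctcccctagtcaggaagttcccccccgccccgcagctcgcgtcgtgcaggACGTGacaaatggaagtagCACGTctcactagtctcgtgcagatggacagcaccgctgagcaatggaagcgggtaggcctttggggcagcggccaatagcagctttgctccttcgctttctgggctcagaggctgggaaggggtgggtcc
Tpi1: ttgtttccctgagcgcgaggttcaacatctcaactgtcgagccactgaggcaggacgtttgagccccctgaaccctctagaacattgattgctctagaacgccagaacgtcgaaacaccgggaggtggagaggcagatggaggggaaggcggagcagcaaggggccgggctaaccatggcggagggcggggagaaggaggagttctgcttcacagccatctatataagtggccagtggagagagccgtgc
The window of Pgk1 held 2 matches, both ACGTG, and that of Tpi1 held 0. Pgam1, which did not pass, held 3 matches, Gapdh held 2, Eno3 held 1 and Eno2 held 0. The windows of the 3 annotated starts of Eno1 held 1 or 2, and those of the 2 starts of Pkm held 0 and 1. CACGTG was in 0 of these windows. Of 32851 RefSeq promoter windows of this length, 38.6% held at least 1 of the first 2 motifs, 16.7% held 2 or more, 6.58% held 3 or more, and 6.02% held CACGTG. A match is a description of the letters, and the table has no measure of binding.

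The library pattern of Pgk1 was compared with those of 5589 other genes whose mean reached 500 normalized reads, by the distance between log2 values centred on each gene's mean over the 4 libraries. The nearest were Plekhb2 (0.09), Nmnat2 (0.16), Fxyd6 (0.16) and Psat1 (0.17), an enzyme of serine synthesis that starts from a product of lower glycolysis. On the same scale Pgk1-rs7 was at 0.11, second of 5595 genes once the members were included. Of the other members that reached this mean, Pkm was at rank 325, Gapdh at 368, Pgam1 at 640, Tpi1 at 657 and Eno1 at 1964 of the 5595. The measure rests on 4 libraries and is given as a description.

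Around these steps, 15 other genes of the pathway were tested, from glucose uptake to lactate export. Of these, 4 were called as higher in the Lncenc1-high group (0.505% of all genes tested) and 0 as lower (1.02%), and 11 did not pass. The median log2 difference of the 15 was 0.37, against -0.01 over all genes tested. The limma voom test called 0 of the 15 (0.0569% of all genes called), with 8 at an unadjusted p under 0.05. For limma voom the share of all genes at that p was not counted. By DESeq2 8 of the 15 were also at an unadjusted p under 0.05, against 8.82% of all genes tested. Some of the 4 calls were lost whichever library was left out, and fewer of all genes were then called as well. Such a refit leaves 1 library in a group, so a lost call cannot be told apart from a less precise test. The called genes in the authors' deposited table were Pfkp, a phosphofructokinase (1.07 ± 0.23 SE, DESeq2 adjusted p = 0.00117), and Aldoc, an aldolase (1.02 ± 0.28, adjusted p = 0.0260). After pyruvate they were Ldha, which makes lactate (0.75 ± 0.18 SE, DESeq2 adjusted p = 0.00676), and Slc16a3, a lactate exporter (1.31 ± 0.29, adjusted p = 0.00215), in the authors' deposited table. Aldoa, the more abundant aldolase, did not pass (0.35 ± 0.17 SE, DESeq2 adjusted p = 0.536, in the authors' deposited table). Its mean was 28419 normalized reads, against 374 for Aldoc. The called genes thus lay before, at and after the step of Pgk1, with Tpi1, Gapdh, Pgam1, the enolases and Pkm in between at values that did not pass.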

How the data were processed

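RNA of 4 libraries (ribosomal RNA depleted, strand-specific, per the labels' protocols) was compared by the authors in 1 table of 19840 genes. TopHat2, HTSeq, DESeq2 1.8.2 and mm9 appear in the submitters' processing notes. How they were set, the annotation and whether counting used strand: not given in the sources used here. Per the file headers, the deposited values are the mean over all libraries of reads divided by size factors (a signal), the log2 fold change with its standard error, the Wald statistic (a score), and the p-value and adjusted p-value, which 14070 genes have. The adjusted p was called at under 0.05. The numerator of the deposited log2 fold change is not named, and 0 other columns of values per sample exist.

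Reads per library were computed from the table: the mean is a sum of whole reads times 4 fixed steps, and the whole reads were kept whose fit gave back the deposited log2 fold change within 1e-12. This gave the reads of 19835 genes, all 9 members included; the 5 genes not solved are the most abundant and hold 8.13% of the summed mean. For the members the next best set of reads missed by at least 4.9e-06. For 196 genes in all, members included, more than 1 set of reads matched the mean and was tried against the fold change, and the next best missed it by at least 1.7e-09. The method was tested on simulated data. Means, ratios and transcript comparisons (GENCODE M21, GRCm38) were computed from these reads. Refits were negative binomial Wald tests at the dispersions solved from the deposited errors. edgeR had been planned for deposited counts and was not run, since the deposited values are not counts. Alternatives were leaving out each library, library totals, TMM factors, limma voom (limma 3.58.1), no filter on low means, and a threshold of 0.1. Benjamini-Hochberg adjustment ran over all genes.

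The members and the gene lists were chosen with earlier results of these data known. Named were the 9 members, Lncenc1, other isozymes and copies of the same steps, called genes and up to 4 more of the pathway and regulator lists, and the 5 genes nearest to Pgk1, of which 1 is not reported here. Gm3839 was named for the sequence it shares with Gapdh. Mycn and Aldoa, of the regulator and pathway lists, were added after the data were seen. Marker lists were naive stem cell, fibroblast or feeder, skeletal muscle and neuron. Analysis used Python 3.11.15 and R 4.3.3.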

Additional observations from a re-analysis of the deposited data

How the results depend on the processing

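The values per library carry no replicate number. No paired analysis was possible because the recovered libraries cannot be tied to the numbered samples. Leaving out each library in turn gave 0 to 2 called members (1 without H1, 0 without H2, 2 without L1, 0 without L2). Over all genes, 57, 81, 204 and 49 were then called without H1, H2, L1 and L2 against 215 with all libraries, so that fewer libraries also lowered the background. limma voom called 0 members (Pgk1 0.95, adjusted p = 0.182, and Pgk1-rs7 0.88, adjusted p = 0.212) and 8 of all genes. Library totals, TMM factors, no filter on low means and a threshold of 0.1 each called 2 members. The summed Pgk1 and Pgk1-rs7 ran from 0.68 to 1.21 with a library left out, and lost its call without H1 (0.96, adjusted p = 0.0506), without H2 (0.88, adjusted p = 0.0911) and without L2 (0.68, adjusted p = 0.456); a lone library is there assumed to vary like the others.

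The sign turned for Gapdh without L2 (-0.041), for Pgam1 without L2 (-0.16) and for Eno3 without H1 (0.14) and without L2 (0.27). It also turned for the log2 ratio of Eno3 over Eno1 without H1 (0.13) and without L2 (0.16), and for that of Tpi1 over Gapdh without L1 (-0.30). The cause was not tested. Across all alternatives Pgk1 stayed between 0.68 and 1.22 (adjusted p = 0.00108 to 0.456), Pgk1-rs7 between 0.68 and 1.09 (adjusted p = 0.0229 to 0.621), Tpi1 between 0.41 and 0.74, Pkm between 0.16 and 0.52, Eno2 between 0.48 and 0.55 and Eno1 between 0.04 and 0.15.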

Other observations

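The other isozymes of the same steps were low or did not pass the test. Bpgm, the bisphosphoglycerate mutase of red blood cells, was at 151, 181, 147 and 143 normalized reads in H1, H2, L1 and L2. In the authors' deposited table its log2 difference was 0.19 ± 0.38 (SE, DESeq2 adjusted p = 0.999). Eno4 was at 6.16, 10.04, 25.9 and 4.94 normalized reads in H1, H2, L1 and L2 and did not pass either (DESeq2 adjusted p = 0.987 in the authors' deposited table). Pgk2, the kinase of sperm, had 2 reads in all 4 libraries together, Pklr, the pyruvate kinase of liver and red blood cells, had 26, and Pgam2, the muscle mutase, had 33, and these 3 genes have no adjusted p.

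Of 14 regulators of these enzymes and of Pkm splicing, DESeq2 called 0 in the authors' deposited table. Its calls there covered 1.53% of all genes tested. A Wald p below 0.05 before adjustment was found for 1 of the 14 and for 8.82% of all genes tested. On the recovered reads limma voom likewise called 0 of the 14 and 0.0569% of all genes. Before adjustment, 1 regulator had a limma voom p below 0.05, a share not counted over all genes. The DESeq2 counts do not set these 14 genes apart from all genes. The 1 regulator below 0.05 in the authors' deposited table was Myc, an activator of glycolytic genes. It was at 85.7, 67.7, 24.6 and 27.2 normalized reads in H1, H2, L1 and L2. Its log2 difference was 1.57 ± 0.63 (SE, DESeq2 adjusted p = 0.288 in the authors' deposited table). Mycn, of the same family, was far more abundant, at 3231, 2296, 2688 and 1683 normalized reads in H1, H2, L1 and L2. The groups overlapped for Mycn, and its log2 difference was 0.34 ± 0.26 (SE, DESeq2 adjusted p = 0.860 in the authors' deposited table). Hif1a was at -0.20 ± 0.19, and the splicing factors Ptbp1 and Hnrnpk were at -0.05 ± 0.18 and -0.06 ± 0.17 (log2 difference, SE, in the authors' deposited table), with no call.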
